A study of Mus musculus with 10 samples.

Results

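The whole course of mRNA decay in high IL-3 was measured in 32Dcl3 cells, an immortalized mouse myeloblast line that depends on interleukin-3 (IL-3) for growth, by setting the 2 arrays taken after 4 h in high IL-3 against the 2 arrays taken at 0 h. These are 4 of the 10 arrays of the series, and the members are the 11856 of 22690 probe sets whose mean intensity over all 10 arrays reached 50. In each of 2 experiments, cells were washed free of IL-3, transcription was arrested with actinomycin D at 10 µg/ml, the culture was divided, and IL-3 was restored at 1 ng/ml (high) or 10 pg/ml (low) for 2 h or 4 h. Every 2 h and 4 h group carried actinomycin D, as did the 0 h group by the methods, and each of the 5 groups held 1 array from each experiment. The labels differ on the 0 h sample: the titles put it after actinomycin D and another label just before, while the methods count 0 h from the return of cytokine, and that count is used here. The 32Dcl3 line is 1 clone, so that the experiments are repeats of a culture, not of animals.

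A transcript that is no longer made disappears at the rate at which it is degraded, so a chase of this kind reads stability from what is left. In mammalian cells decay usually begins with shortening of the poly(A) tail by the Ccr4-Not and Pan2-Pan3 deadenylases, after which the cap is removed and the body is digested from either end. Transcripts of growth factor response genes, of cytokines and of many transcription factors carry AU-rich elements or other signals that recruit this machinery and are known to be short-lived, whereas transcripts for ribosomal proteins and for energy metabolism are known to last long.

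After 4 h in high IL-3, 4201 probe sets were lower than at 0 h (35.4% of those tested) and 1147 were higher (9.67%), at a Benjamini-Hochberg adjusted p under 0.05 in limma with the experiment as a block. The remaining 54.9% did not pass in either direction. With transcription blocked, lower and higher refer here to array intensity. The median probe set kept 88.9% of its 0 h intensity in experiment 1 and 95.8% in experiment 2, and the 5th percentile was at 21.9% and 19.9%. The experiments ranked transcripts alike: the log2 ratios of 4 h to 0 h correlated with r = 0.919 across probe sets, which share arrays and are not independent replicates. Of the probe sets called lower, 4200 were below their 0 h value in both experiments, and of those called higher, 1144 were above it in both.

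**Figure D1:**
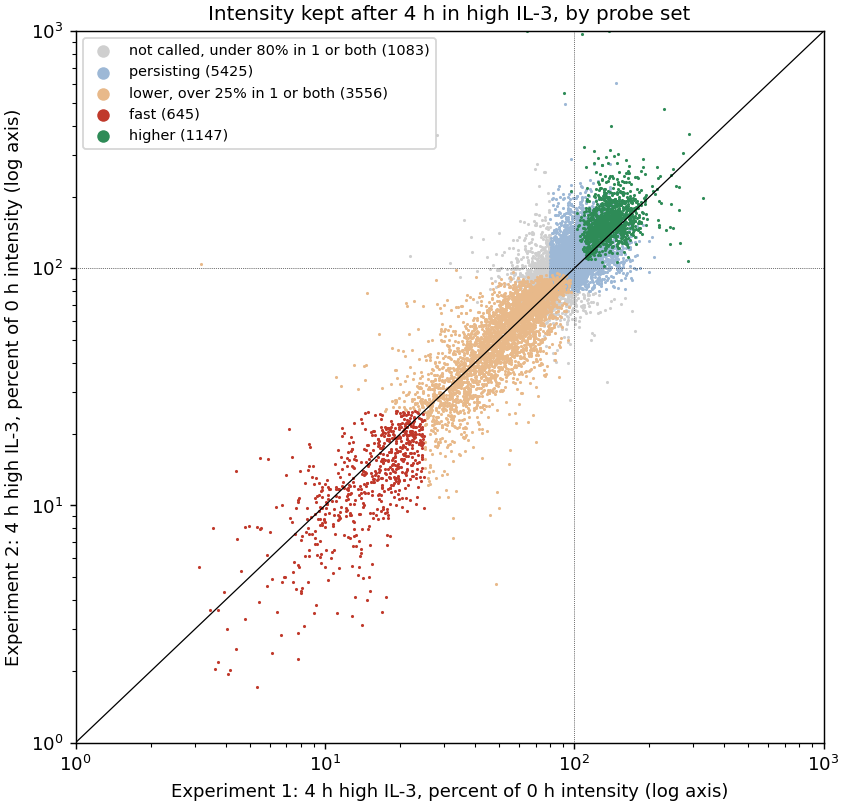
Intensity after 4 h in high IL-3 as a percentage of 0 h for each of the 11856 tested probe sets, experiment 1 on the horizontal and experiment 2 on the vertical axis (both logarithmic, values beyond the axes drawn at the edge), coloured by decay class. The 645 fast probe sets lie at or below 25% in both experiments, and the 5425 persisting ones at or above 80% in both.

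Array intensities were lower after the chase, from medians of 70.6 and 58.7 at 0 h to 53.2 and 48.9 at 4 h in high IL-3, over all probe sets. In bulk samples fewer cells and less RNA per cell cannot be told apart, and the split of calls moved with the scale. Probe sets for Bacillus subtilis transcripts, which the array's maker supplies as poly(A) controls, stood at 142% and 138% of 0 h at 4 h in high IL-3 as a geometric mean over 12 probe sets, and whether or when they were added is not stated by any source used here. Scaled to them, 69.9% of probe sets were lower and 0.405% higher. Scaled to a common 75th percentile, 22.1% were lower and 49.9% higher. Quantile normalization gave 24.1% and 39.6%, and centring each array on its median 21.8% and 51.5%. The median log2 change, -0.10 as deposited, lay between -0.56 and 0.32 under these scalings, and log2 changes below are therefore given relative to that median and called relative log2 changes. Percentages of 0 h stay on the deposited scale. Scaling by percentile, by quantiles or by the median sets all arrays to a like level of signal. The study's methods hold that an unchanged total of mRNA cannot be assumed here, since later samples followed the block of transcription. Among the programs it compared, the study chose dChip, which gave 0 h the greatest share of signal.

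**Figure D2:**
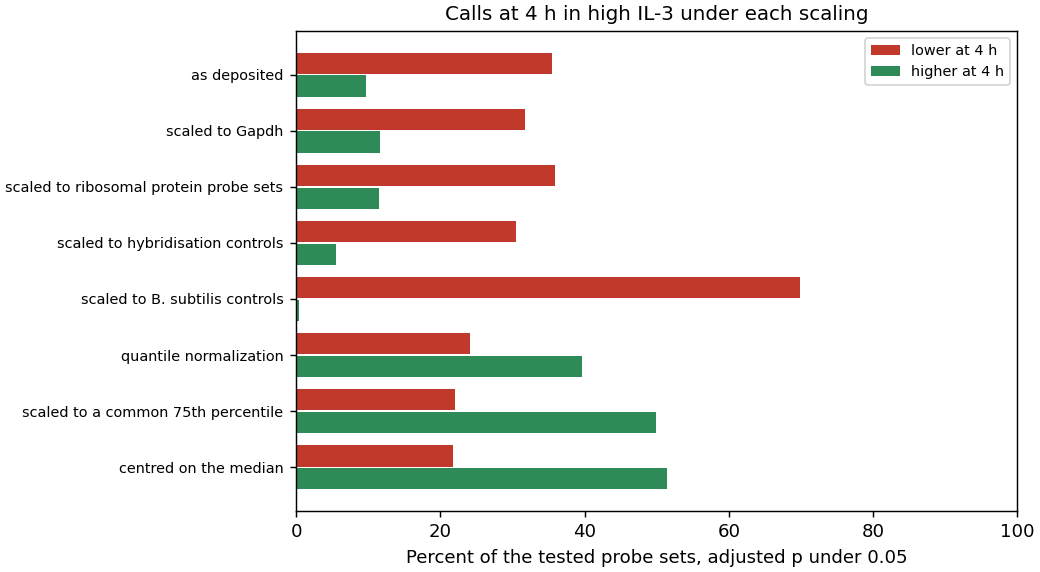
Percentage of the tested probe sets called lower (red) or higher (green) after 4 h in high IL-3 on the deposited scale and under 7 other scalings. The share called lower ran from 21.8% to 69.9% and the share called higher from 0.405% to 51.5%.

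The signal ratio of the 3′ to the 5′ end was 0.844 to 0.905 for Gapdh and 1.06 to 1.32 for Actb over the 10 arrays. The cells carried myeloid transcripts. Of 27 genes on the array from a list of neutrophil granule and other granulocyte genes, 20 reached a mean of 50, against 1 of 18 lymphoid markers. Elane, at 31.3 and 6.98 at 0 h, and Camp, at 1 and 1.28, were among the granule genes that did not. Of 18 mast cell and basophil markers 7 reached 50, and of 14 erythroid and megakaryocyte markers 5. The macrophage antigen Adgre1 was at 2889 and 3281 at 0 h, whereas 3 of 15 macrophage and monocyte markers reached 50. The experiments differed in granule transcripts from the outset, with Mpo, the myeloperoxidase gene, at 3409 in experiment 1 and 509 in experiment 2 at 0 h, so that each array was compared with the 0 h array of its own experiment.

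Taking 1 probe set a gene, the brightest, 2758 of 6792 genes were lower (40.6%) and 619 higher (9.11%). The persisting class, not called and at or above 80% of 0 h in both experiments, held 2847 (41.9%). The fast class, lower and at or below 25% of 0 h in both experiments, held 457 of the 6792. Over all 6792 genes the median relative log2 change was -0.07. These shares are the background for the counts of gene groups that follow.

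The 15 largest falls, taken over all probe sets with 1 probe set a gene, were those of Cited2, Myc, Wee1, Dbr1, Bhlhe40, Pnrc1, Ccnf, Sesn2, Phax, Nfil3, Riox1, Zmynd19, 1700017B05Rik, Dusp2 and Srfbp1. The probe sets with these falls kept between 2.96% and 5.67% of their 0 h intensity, as a mean of 2 experiments. For Sesn2 this was the dimmer of 2 probe sets by the mean over the 10 arrays, but the brighter at 0 h, at 924 and 738. The other, at 450 and 609 at 0 h, kept 55.98% ± 24.03 (SD, n = 2) and was also called lower. They include transcription regulators, a checkpoint kinase, a cyclin and a phosphatase. Cited2, a transcriptional coregulator needed in blood formation, started from 4803 in experiment 1 and 4449 in experiment 2 and ended at 230 and 148. Its relative log2 change was -4.43 (SE 0.18, adjusted p = 2.9e-10), and the 4 h arrays lay far below both 0 h arrays. A second Cited2 probe set kept 15.4% ± 8.32 (SD, n = 2).

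Myc, the growth-promoting transcription factor, went from 1463 and 1064 to 54.3 and 38.4. It had already reached 76.5 and 30.2 at 2 h, and 3.66% ± 0.0717 was left at 4 h (SD, n = 2; relative log2 change -4.26, SE 0.19, adjusted p = 3.3e-10). In experiment 2 the 4 h value was no lower than that at 2 h. Wee1, the kinase that holds Cdk1 inactive ahead of mitosis, went from 1034 and 533 to 38.7 and 11.6 (relative log2 change -4.19, SE 0.20, adjusted p = 6e-10). Bhlhe40, a repressor of the basic helix-loop-helix family, fell from 1873 and 1732 to 86.3 and 91.7, with a half-life of 0.863 ± 0.0136 h (SD, n = 2). Half-lives were computed within an experiment from a line of constant decay fitted to the logged 2 h and 4 h values and fixed at the 0 h value, and come out too long where a signal had reached its floor by 2 h.

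At such levels the floor of the assay matters. Of the 645 fast probe sets, defined as lower and at or below 25% of 0 h in both experiments, 312 were under an intensity of 50 in 1 or both arrays at 4 h. The fast class made up 5.44% of the probe sets tested, with a median half-life of 1.47 h in experiment 1 and 1.32 h in experiment 2. A limit of 33% would have taken in 965 probe sets. Just inside the limit lay Kdm5b, at 24.99% and 19.6%, and just outside it Asb8, at 17.4% and 25.1%. At the limit of the persisting class, Vcl was inside at 80.03% and 90.9%, and Hif1a outside at 79.97% and 87.1%.

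The lists with the lowest medians were those of transcriptional and signalling response. Of 19 immediate early transcription factors tested, which cells induce within minutes of a stimulus, 14 were lower and 0 higher, with a median relative log2 change of -1.42 and 27.6% of 0 h left. Klf10, a zinc finger repressor of the TGF-β response, went from 566 and 327 to 48.6 and 21.2 (7.55% ± 1.49, SD, n = 2). Cebpb, a leucine zipper factor of the myeloid and acute phase programmes, went from 1454 and 1290 to 118 and 57.9. The group was not uniform, since 5 of its 19 members were in the persisting class, at or above 80% in both experiments.

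Of 12 Myc, Myb and Id regulators, 9 were lower and 0 higher, with a median relative log2 change of -1.54. Id2 and Id1, which block basic helix-loop-helix factors by pairing with them, kept 5.51% ± 0.846 and 12.3% ± 0.363 (SD, n = 2). Id1 stood at 849 and 1439 at 0 h, at 117 and 191 at 2 h and at 107 and 174 at 4 h. Nearly all of the loss of Id1 was thus complete at 2 h in both experiments.

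Of 24 signalling feedback regulators, the phosphatases, Sprouty and Socs proteins that signalling induces to limit itself, 21 were lower and 0 higher, with a median relative log2 change of -1.63 and 11 in the fast class. Dusp2 and Dusp6 are phosphatases that switch off MAP kinases. Dusp2 fell from 738 and 477 to 23.0 and 26.2. Dusp6 fell from 871 and 884 to 69.7 and 37.7 (relative log2 change -3.62, SE 0.19, adjusted p = 8.4e-10). Cish, a Socs family inhibitor that STAT5 induces downstream of IL-3, went from 3177 and 2856 to 710 and 457 at 2 h and to 659 and 365 at 4 h, so that it too lost most of its signal in the first 2 h. Spred2, an inhibitor of Ras signalling, went from 691 and 628 to 288 and 206 at 2 h and to 83.6 and 56.6 at 4 h, and 43.0% and 48.8% of its log2 fall over 4 h was present at 2 h.

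**Figure D3:**
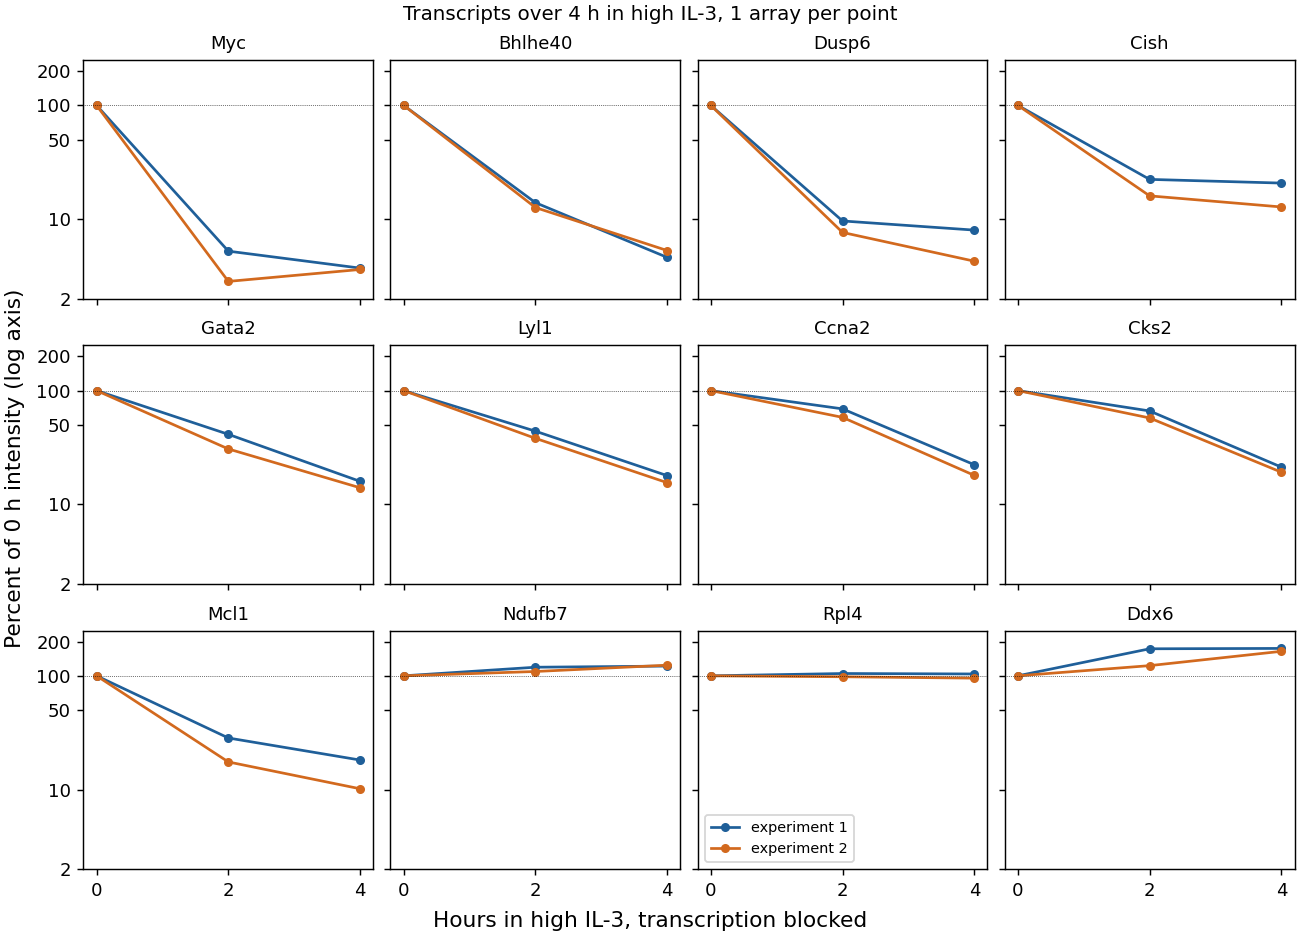
Percentage of the 0 h intensity (logarithmic axis) at 0 h, 2 h and 4 h in high IL-3 for 12 genes, 1 line an experiment and 1 array a point. Myc, Dusp6 and Cish lost most of what they lost in 4 h by 2 h, Ccna2 and Cks2 fell mainly after 2 h, and Ndufb7 and Ddx6 ended above their 0 h values.

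The transcription factors of the blood lineages were also short-lived with full cytokine. Of 14 tested, 12 were lower and 0 higher, with the lowest median of all lists of 5 or more genes (relative log2 change -1.86, 24.5% of 0 h). Gata2, Tal1 and Lyl1, which act together in stem and progenitor cells, fell at a like pace. Gata2 went from 2260 and 2118 to 360 and 296, with a half-life of 1.44 ± 0.117 h (SD, n = 2). Tal1 went from 1410 and 1193 to 204 and 161, with a half-life of 1.41 ± 0.115 h. Lyl1 went from 2645 and 3058 to 473 and 474, with a half-life of 1.55 ± 0.105 h (relative log2 change -2.45, SE 0.12, adjusted p = 6.6e-10).

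Cytokine receptor subunits split. Of 18, 10 were lower and 1 higher, with a median relative log2 change of -0.47. Csf2rb2, the β subunit that serves IL-3 alone in mice, fell from 1012 and 1359 to 465 and 630 (46.2% ± 0.289, SD, n = 2). Il3ra, the ligand-binding α subunit, was the member called higher, from 331 and 272 to 462 and 419, and this call was lost without the 0 h or the 4 h high IL-3 array of experiment 2, where its log2 change as deposited was 0.47 and 0.50. Il4ra, the IL-4 receptor chain, started at 325 and 1054 and ended at 29.2 and 37.0.

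Of 17 cytokines and growth factors tested, 7 were lower and 4 higher, and the median kept 98.9% of 0 h in high IL-3. The median of the same 17 was 48.7% after 4 h in low IL-3, which has the same 0 h arrays. Il16, a chemoattractant precursor, was the deepest fall among them, from 380 in both experiments to 25.7 and 38.2. This list changed its side of the median of all genes when the array of 4 h in high IL-3 from experiment 1 was left out and when the filter was set at a mean of 200.

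Transcripts of the cell cycle fell, those of mitosis by more at the median than those of replication, a difference not tested. Of 64 G2/M and mitosis genes, 56 were lower and 0 higher, with a median relative log2 change of -1.05 and 44.4% of 0 h left. Of 62 G1/S and DNA replication genes, 41 were lower and 0 higher, with a median of -0.41 and 69.8% left. Cks2, a subunit of cyclin-dependent kinase complexes, was at 4030 and 3783 at 0 h, still at 2669 and 2174 at 2 h, and at 856 and 725 at 4 h (relative log2 change -2.19, SE 0.09, adjusted p = 1.6e-10). Ccna2, the cyclin A2 gene, followed the same course, from 2448 and 2082 through 1691 and 1210 to 546 and 374. Both kept more of their signal than they had lost at 2 h, at 61.8% ± 6.2 and 63.6% ± 7.72 (SD, n = 2).

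The licensing factor Cdt1 and its inhibitor geminin (Gmnn), whose proteins set when replication origins may fire, differed in pace. Cdt1 went from 2467 and 1565 to 184 and 82.3, or 6.36% ± 1.55 (SD, n = 2). Gmnn went from 2605 and 1620 to 621 and 409, or 24.5% ± 0.992. The difference between these genes was not tested.

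Genes of the p53 pathway and of cell death were mixed. Of 23 p53 pathway genes, 13 were lower and 2 higher, with a median relative log2 change of -0.69. Of 14 Bcl2 family genes, 7 were lower and 2 higher (median -0.30), and of 18 caspases and inhibitors of apoptosis, 8 were lower and 0 higher (median -0.22). Mcl1, a survival protein that cytokines maintain, fell from 3133 and 3604 to 570 and 366 (14.2% ± 5.67, SD, n = 2), and the death-promoting Bbc3 fell from 169 and 269 to 35.3 and 47.6. Bid, which links death receptors to mitochondria, held 71.2% ± 20.9 at 2 h and 24.8% ± 1.19 at 4 h. Apaf1, the scaffold of the apoptosome, kept 19.7% ± 0.286. The Bcl2 family and the caspase list had 2 members each in the fast class, and their medians kept 74.0% and 79.4% of 0 h. Their shares lower were 50% and 44.4%, beside 40.6% of all genes.

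Among genes that make and process RNA, most groups had more than the background share of members lower. Of 76 ribosome biogenesis genes, 53 were lower and 1 higher, with a median relative log2 change of -0.67. Ppan, a factor of the large subunit's assembly, went from 919 and 821 to 103 and 28.9, and Gnl3, the nucleostemin gene, kept 15.02% ± 2.73 (SD, n = 2). Of 85 splicing and hnRNP genes, 54 were lower and 0 higher (median -0.31). Lsm8, a subunit of the U6 snRNA ring, fell the most of them, from 2102 and 1871 to 227 and 154.

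Of 70 genes of the general transcription machinery, 38 were lower and 2 higher, with a median relative log2 change of -0.34. Gtf2b, the TFIIB gene, kept 8.63% ± 0.263 (SD, n = 2) and the Mediator subunit Med4 kept 6.01% ± 0.209. Of 62 chromatin modifiers, 33 were lower and 1 higher (median -0.34), with the deacetylase Sirt1 going from 320 and 276 to 57.3 and 24.4. The largest of these families was the C2H2 zinc finger genes. Of 102 tested, 79 were lower and 2 higher, with a median of -0.95 and 43.4% left. Zfp622 went from 2308 and 1758 to 247 and 112. Zfp281 went from 523 and 310 to 70.6 and 31.4 at 2 h, and stood at 76.9 and 38.6 at 4 h.

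The decay machinery was itself partly short-lived. Of 38 mRNA decay factors, 20 were lower and 3 higher, with a median relative log2 change of -0.36. Pnrc1, a cofactor of decapping, went from 2172 and 1348 to 169 and 39.0, and Tob2, which recruits the Ccr4-Not deadenylase, kept 13.9% ± 3.76 (SD, n = 2). A second Tob2 probe set kept 12.1% ± 3.11, while the other 2 were not called, at 107% ± 8.1 and 78.2% ± 55.3. Ddx6, the helicase that couples translational repression to decapping, was in contrast higher, from 1036 and 1017 to 1804 and 1670 (relative log2 change 0.85, SE 0.12, adjusted p = 6e-05). The other 2 tested Ddx6 probe sets were not called, at 95.01% ± 2.65 and 102% ± 9.67 (SD, n = 2), so that this rise was seen in 1 of 3 probe sets. Of 18 AU-rich element binding proteins, 7 were lower and 1 higher, with a median of -0.05, beside -0.07 for all genes, an order that turned with a pseudocount of 64, a filter of 200, quantile normalization, scaling to the B. subtilis controls, or without the experiment 1 array of 0 h or of 4 h in high IL-3. Zfp36l2, of the family that brings such transcripts to the deadenylase, fell from 3455 and 2940 to 382 and 323.

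Groups of the translation apparatus had different counts, and the differences between them were not tested. Of 44 cytoplasmic ribosomal protein genes, 1 was lower and 2 higher, 40 were in the persisting class, and the median kept 98.7% of 0 h, with a median relative log2 change of 0.08 and a narrow middle range of 0.04 to 0.12. This median lay above that of all genes on every scale tried but quantile normalization. The 2 members called higher were Rpl14, from 658 and 479 to 904 and 802, and Rps6, from 855 and 704 to 1159 and 979. The call of Rps6 was lost without the 0 h array of experiment 2 or the 4 h high IL-3 array of experiment 1, with a log2 change as deposited of 0.36 and 0.39. Of 74 mitochondrial ribosomal protein genes, 39 were lower and 5 higher, with a median of -0.30. Mrpl44, of the large mitochondrial subunit, went from 927 and 541 to 84.5 and 58.1. Of 42 translation initiation factors, 20 were lower and 4 higher (median -0.12), and of 27 aminoacyl-tRNA synthetases and their partners, 17 were lower and 1 higher (median -0.24). Among these, Eif1a, a start codon scanning factor, kept 18.1% ± 5.95, and the isoleucine enzyme Iars went from 2524 and 2451 to 1230 and 1225.

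**Figure D4:**
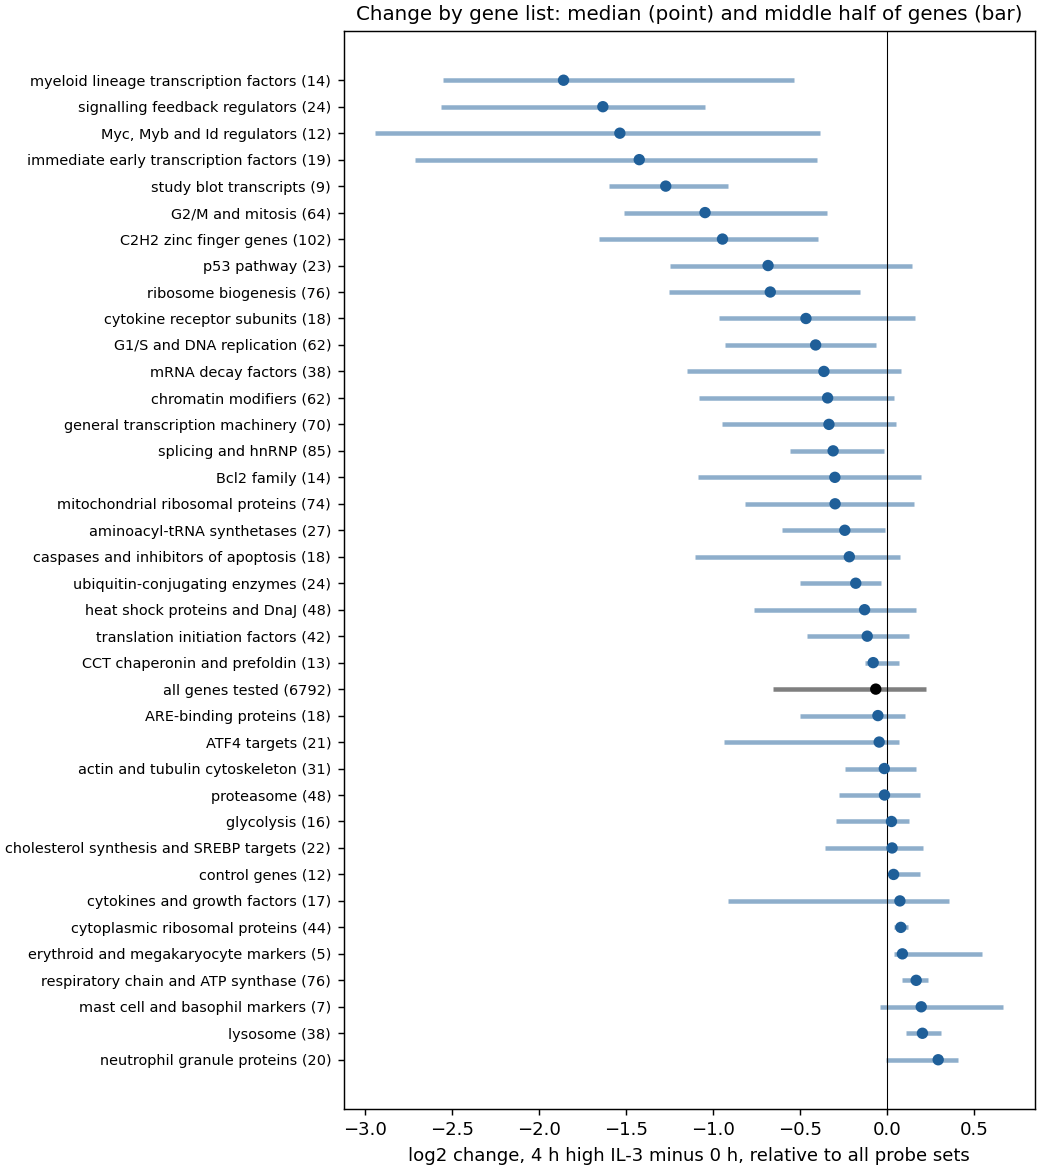
Log2 change from 0 h to 4 h in high IL-3, relative to the median of all tested probe sets, for each gene list with at least 5 tested genes (number in brackets). Points are medians and bars run from the lower to the upper quartile of genes. Transcription and signalling regulators lie at the top with medians of -1.42 to -1.86, and ribosomal protein, respiratory chain, lysosome and granule genes at the bottom, above 0.

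When the loss took place also differed between groups. For each gene called lower, the share of its log2 fall from 0 h to 4 h that was already present at 2 h was taken within each experiment. Falls were taken on log2(intensity + 16). A constant rate gives 50% where signals stay well above 16 and the floor, and more where they come near either. The median over all 2758 genes called lower was 55.3% in both experiments. The medians for immediate early transcription factors were 79.6% and 85.1%, for C2H2 zinc finger genes 81.8% and 80.1%, and for signalling feedback regulators 73.2% and 74.2%. By this measure these groups had most of their 4 h fall by 2 h. The C2H2 genes that fell still held a median of 35.8% and 34.1% of their 0 h intensity at 4 h, which does not show their distance from the floor. The part of the offset and of the floor in these shares was not tested.

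Chromatin modifiers had a median share of 72.9% and 69.3%, and p53 pathway genes of 70.4% and 67.3%. The share was near the overall median for G2/M genes, at 48.9% and 53.4%, and for the lineage transcription factors, at 53.8% and 52.9%. Among lists with at least 10 genes called lower, both experiments were under 50% for mitochondrial ribosomal proteins (42.5% and 38.7%), translation initiation factors (38.4% and 46.0%), splicing genes (40.3% and 49.1%), heat shock genes (37.8% and 47.2%), ubiquitin-conjugating enzymes (32.0% and 49.8%), aminoacyl-tRNA synthetases (24.8% and 47.2%) and cytoskeleton genes (5.29% and 39.5%). In low IL-3, with its own 2 h and 4 h arrays but the same 0 h arrays, the C2H2 genes that fell in high IL-3 had medians of 81.0% and 96.0%, and the mitochondrial ribosomal protein genes 31.8% and 56.5%. These are descriptions over genes, without a test, and the genes of a list share arrays.

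**Figure D5:**
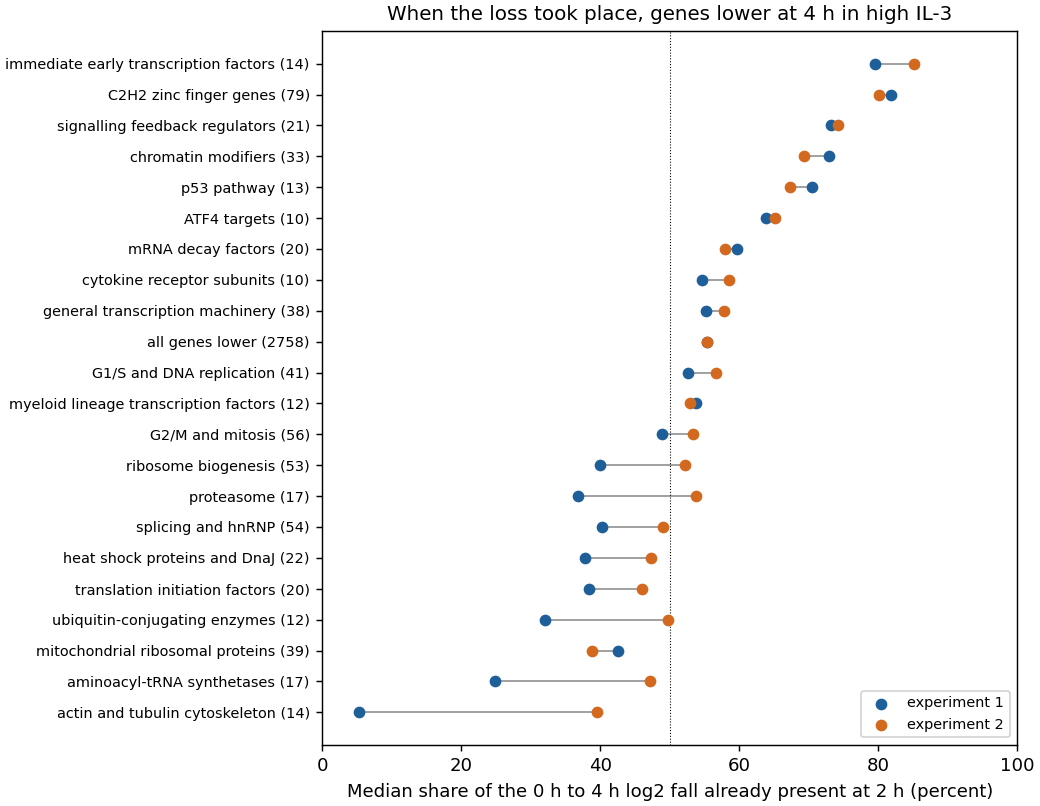
Median share of the log2 fall from 0 h to 4 h in high IL-3 that was present at 2 h, in percent, for genes called lower in each list with at least 10 of them (number in brackets), experiment 1 in blue and experiment 2 in orange. The dotted line at 50% is a constant rate of loss for signals well above the offset of 16 and the floor. Immediate early and C2H2 zinc finger genes lie near 80% and aminoacyl-tRNA synthetases and mitochondrial ribosomal proteins under 50%.

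Most of the tested nuclear genes of the respiratory chain and of the lysosome were in the persisting class. Of 76 respiratory chain and ATP synthase genes, 6 were lower and 11 higher, the latter 14.5% of the list beside 9.11% of all genes, 59 were in the persisting class (77.6%, beside 41.9% of all genes), and the median kept 105% of 0 h (relative log2 change 0.17). Ndufb7, a complex I subunit, stood at 2577 and 2287 at 0 h and at 3138 and 2837 at 4 h. Ndufs7, another complex I subunit, moved the other way, to 64.03% ± 6.24 (SD, n = 2). The one mitochondrially encoded gene matched, ND5, fell from 5587 and 5355 to 3552 and 3382. Of 38 lysosome genes, 3 were lower and 4 higher, 30 (78.9%, beside the same 41.9%) were in the persisting class and the median kept 108%, with the protective protein gene Ctsa at 130% ± 0.778. Ctsa lost its call without the 0 h array of experiment 2 (log2 change as deposited 0.34) or either 4 h high IL-3 array (0.34 and 0.39).

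Of 20 tested genes of the neutrophil granule list, 3 were lower and 3 higher, and 14 persisted. The list also holds oxidase and receptor genes and Epx, the eosinophil peroxidase gene. Its median relative log2 change was 0.29, the highest among lists with more than 5 genes. Serpinb1a, an inhibitor of granule proteases, was among the 3 lower, from 2783 and 3766 to 1998 and 2816. Of 7 mast cell and basophil markers tested, 1 was lower, Gata2, and 3 were higher. Mcpt8, a basophil protease, went from 54.5 and 188 to 117 and 407, and Fcer1g, the Fc receptor γ chain, kept 119% ± 3.24 (SD, n = 2). Fcer1g lost its call without the 0 h array of experiment 1 or without either 4 h high IL-3 array, with a log2 change as deposited of 0.23 to 0.27. Of 3 macrophage markers and 5 erythroid and megakaryocyte markers, 1 each was higher and 0 were lower, and the 1 lymphoid marker tested did not pass.

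The medians of housekeeping groups lay near that of all genes, and the side changed under quantile normalization for the proteasome, glycolysis, control gene, cytoskeleton and ATF4 lists, at a filter of 200 for the ATF4 and cholesterol lists, at a common 75th percentile for the chaperonin list, and without 1 array of 0 h or of 4 h in high IL-3 for the chaperonin, cytoskeleton and ATF4 lists. Of 48 proteasome genes, 17 were lower and 5 higher (median relative log2 change -0.02). Psmf1, an inhibitor of the proteasome, rose from 390 and 373 to 651 and 619 by 1 of 3 probe sets, the other 2 being uncalled at 105.9% ± 16.4 and 104% ± 16.1 (SD, n = 2). The assembly chaperone Psmg3 fell from 469 and 537 to 105 and 106. Of 24 ubiquitin-conjugating enzymes, 12 were lower and 1 higher (median -0.18), with Ube2g1 at 16.1% ± 1.42 (SD, n = 2). Of 48 heat shock and DnaJ genes, 22 were lower and 6 higher (median -0.13), with the inducible cochaperone Dnajb1 at 17.8% ± 8.24. Of 13 CCT chaperonin and prefoldin genes, 7 were lower and 1 higher (median -0.08), by small amounts such as that of Cct4, which kept 71.5% ± 1.55.

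Of 16 glycolysis genes, 5 were lower and 2 higher (median relative log2 change 0.02), and the regulated hexokinase Hk2 fell from 1333 and 795 to 224 and 158. Of 31 actin and tubulin cytoskeleton genes, 14 were lower and 4 higher (median -0.02), and Arpc4, a subunit of the Arp2/3 complex, rose from 983 and 1505 to 1783 and 2235, while its other probe set was not called, at 137% ± 4.8 (SD, n = 2). Of 22 cholesterol synthesis genes, 7 were lower and 3 higher (median 0.03), and Sqle, the squalene epoxidase gene, fell from 2108 and 1627 to 265 and 152 (relative log2 change -3.01, SE 0.13, adjusted p = 3.3e-10). Of 21 ATF4 targets, 10 were lower and 2 higher (median -0.05). Of 12 genes in common use as internal controls, 2 were lower and 1 higher, and Tbp, the TATA-binding protein, kept only 16.4% ± 1.04 (SD, n = 2).

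The brightest genes whose every tested probe set stayed between 90% and 110% of 0 h in both experiments were Rps3a1, Eef1a1, Rplp2, Rpl4, Rpsa, Rpl13a, Rps4x, Tpt1, Rpl35 and Rpl38. They are ribosomal proteins, an elongation factor and the translationally controlled tumour protein. In all, 447 genes met this description. Rpl4 stood at 9302 and 9679 at 0 h and at 9660 and 9231 at 4 h, and Eef1a1 at 9334 and 9832 and at 8912 and 9070. These intensities are close to the top of the scale, where the highest mean over arrays was 10398, and the part of saturation in their constancy was not tested. Rps28, at 10006 and 10075, was the ribosomal protein gene called lower, at 92.7% ± 4.34 (SD, n = 2), and its direction turned when arrays were scaled to their 75th percentile or median. Its call was lost without the 0 h array of experiment 2 (log2 change as deposited -0.06) and without either 4 h high IL-3 array (-0.12 and -0.10) or either array of 2 h in low IL-3 (-0.11). The other 2 Rps28 probe sets were not called, at 95.7% ± 5.4 and 96.1% ± 3.68.

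Persistence was not confined to the brightest probe sets. Of the 2372 probe sets with means up to 117, 42.1% were in the persisting class, and of the 2371 with means of 1211 or more, 68.5%. The sets with means between these had 35.7%, 38.6% and 43.9%, from dim to bright. A signal at the floor cannot fall further, and the part of the floor in the share of the dimmest set was not tested. The fast class made up 7.63% of the dimmest set, 9.11% of those with means from there to 244 and 0.380% of the brightest. Most of the 10 arrays were taken after 0 h, so that a fall itself lowers the mean and these shares are not independent of decay. At 0 h the median intensity was 503 for fast and 468 for persisting probe sets.

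The largest rises with the same sign in both experiments were those of Wdfy2, Eif4ebp2, Mmp23, Myh14, Igfbp6, Rnf141, Ociad1, Sumf1, Oas1a and Gm11517. They too were taken over all probe sets, and the rising ones had mean intensities of 67.7 to 314 over the 10 arrays. For 3 of these genes the brightest probe set was not called: that of Eif4ebp2 kept 89.0% ± 4.35 (SD, n = 2), that of Ociad1 97.3% ± 8.1 and that of Rnf141 124% ± 31.4. A second bright Eif4ebp2 probe set kept 98.5% ± 0.282. Wdfy2, which encodes an endosomal FYVE domain protein, went from 138 and 82.6 to 315 and 390 (relative log2 change 1.67, SE 0.19, adjusted p = 3.1e-06). Igfbp6, an IGF-binding protein, went from 163 and 161 to 399 and 396. Sumf1, which activates sulfatases, went from 108 and 91.2 to 233 and 219 (relative log2 change 1.17, SE 0.16, adjusted p = 4.6e-05).

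Several rises rested on 1 array. Myh14, a nonmuscle myosin, stood at 40.8 and 43.8 in experiment 1 and went from 19.7 to 192 in experiment 2, and its call was lost without the 0 h or the 4 h high IL-3 array of experiment 2 (log2 change as deposited 0.52 and 0.55). Ociad1 was at 3.21 in the 0 h array of experiment 2, without which its log2 change was 0.29 and not called. Rnf141 likewise lost its call without that array, with a log2 change of 0.46. In all, the 1147 probe sets called higher became 366 without the 0 h array of experiment 2, 425 without the 4 h high IL-3 array of experiment 2 and 693 without that of experiment 1. Of the 21 tested B. subtilis control probe sets, 8 were also called higher and 0 lower, with a median of 139% of 0 h, beside a median of 136% and 157% in experiments 1 and 2 for all probe sets called higher. The study's supplementary methods treat values above 0 h as measurement noise, because transcription was blocked, and cap the high IL-3 ratios at 1. The parts of noise and of the array scale in the rises were not tested.

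Other probe sets of the same gene offered a second look at each class. The arrays are the same, but these probe sets took no part in choosing the class, which was read from the brightest. Of 169 further probe sets of fast genes, 143 (84.6%) were lower and 3 higher, with a median of 24.1% of 0 h. Of 1878 further probe sets of persisting genes, 126 (6.71%) were lower and 261 (13.9%) higher. Of 295 further probe sets of genes called higher, 152 (51.5%) were higher and 3 lower. Over all 4081 further probe sets, 29.2% were lower and 11% higher.

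Among 2680 genes with more than 1 tested probe set, 610 were lower in all of them, 92 higher in all, and 29 had probe sets called in opposite directions. The brightest of these 29 were Rps20, Hspa8 and Ube2d3. For Rps20, probe sets at 9260 and 9731 and at 8523 and 8795 at 0 h kept 94.3% ± 0.941 and 92.0% ± 4.24 (SD, n = 2), the latter called lower, while one at 93.2 and 37.5 rose to 155 and 94.4. For Hspa8, the constitutive Hsp70 chaperone, 3 bright probe sets kept 86.0% to 90.4% and a dim one went from 123.3 and 68.3 to 184 and 207. For the ubiquitin-conjugating Ube2d3, 7 probe sets ran from 64.5% to 142%. Of these calls, that of the lower Rps20 probe set was lost without the 0 h array of experiment 2 (log2 change as deposited -0.08) or either 4 h high IL-3 array (-0.14 and -0.11), and that of the dim Hspa8 probe set without the 0 h or 4 h high IL-3 array of experiment 2 (0.55 and 0.82) or either 4 h low IL-3 array (0.96). Of the Ube2d3 calls, 3 were lost without 1 array, among them a rise whose log2 change was 0.32 without the 0 h array of experiment 2.

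The 2 h and 4 h arrays in low IL-3 gave the classes values that did not enter their ratios. From 2 h to 4 h in low IL-3, fast probe sets changed by a median log2 of -0.81, and 95.5% were below 0. Persisting ones changed by 0.04 with 39.5% below 0, and those called higher by 0.28 with 3.75% below 0. Over all tested probe sets the median was -0.06, with 58.6% below 0.

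Genes of the fast class had a shorter median span in the genome than others, a description without a test, with a span of 15.3 kb from start to end of the gene in the RefSeq annotation (GRCm38.p6), beside 21.8 kb for all genes tested. The span was 24.5 kb for other genes called lower, 21.2 kb for persisting genes and 16.3 kb for those called higher. By list, the median span was 3.75 kb for immediate early transcription factors and 3.61 kb for ribosomal proteins, so that short genes stood at both ends of the range of stability. Promoter features of the classes are described without a test. Promoters on chromosome 18 were left out. Of all genes tested, 83.1% had a promoter entry among the rest, from 250 bases before to 50 after the annotated start. The median GC content was 62.3% in the fast class and 60.7% in the persisting class, against 61% in all, and was lowest, at 59%, in genes called higher, whose promoters held a median of 18 CpG beside 23 in the fast class. TATAAA on the sense strand, between 45 and 16 bases before the start, was found in 1.08% of promoters in the fast class, 1.05% in the persisting class and 1.03% in all.

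A C followed by 5 pyrimidines on the sense strand, from 5 bases before to 10 after the annotated start, the kind of start that marks mRNAs of the translation apparatus, was found in 37.0% of 46 promoters of cytoplasmic ribosomal protein genes and in 9.72% of 7295 promoters of all genes tested. It was found in 9.52% of promoters in the fast class and in 9.87% in the persisting class. The annotated start may not be the start used in these cells.

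The transcripts that the study examined by Northern blot were mostly lower after 4 h in high IL-3: of 9, including the loading control Gapdh, 8 were lower and 0 higher, with a median relative log2 change of -1.27. The study took them from its ranking of these arrays by response to cytokine, apart from Cdkn1a and Gapdh, so that the count is no independent evidence. Cdkn1a, the cell cycle inhibitor p21, went from 2999 and 2661 to 1451 and 885 in high IL-3 and to 689 and 537 in low IL-3. Il6 went from 787 and 994 to 350 and 530 in high and to 122 and 194 in low IL-3. Hbegf, an EGF receptor ligand that was not among the blotted transcripts and was named after its values were seen, was not called lower in high IL-3, from 935 and 1158 to 886 and 764, and stood at 210 and 242 after 4 h in low IL-3. The difference between the cytokine arms at 4 h passed the test for Il6, for both Hbegf probe sets and for 1 of 2 Cdkn1a probe sets, the other having a log2 difference of 0.56 (adjusted p = 0.53 in limma). Hbegf was lower in high IL-3 than at 0 h without the 0 h array of experiment 1, with a log2 change as deposited of -0.55. Cited2, also among the blot transcripts, had fallen to 230 and 148 in high and 159 and 151 in low IL-3.

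Myb, a transcription factor of immature blood cells, kept 30.4% ± 2.07 and Pim1, a survival kinase that cytokines induce, 31.9% ± 13.2 of 0 h in high IL-3 (SD, n = 2). Pik3cd, a catalytic subunit of PI3-kinase, kept 37.9% ± 2.41, and Zfp36l1 kept 59.5% ± 6.29, with a dim second probe set uncalled at 93.4% ± 5.74. The 3 Gapdh probe sets kept 96.3% to 96.8%. Over all tested probe sets, high and low IL-3 at 4 h differed in few: 46 were higher in high IL-3 (0.388%) and 2 lower (0.0169%), with the same test. Of these 48, 4 and 15 were left in number without the low IL-3 array of 4 h from experiment 1 and 2, and 12 and 9 without that of high IL-3.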

How the data were processed

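The deposited table holds intensity values, on a linear scale, which the authors made by normalizing all 10 arrays (Affymetrix mouse 430A 2.0) together with dChip at default settings; no source used here gives its version. Default dChip equates a set of rank-invariant probe sets between arrays, so that a loss shared by most transcripts can be partly removed. The number of arrays, 2 a group, limits the precision. Genes came from the platform annotation with symbols updated through RefSeq (GRCm38.p6): 20393 named 1 gene, 691 several and 1606 none, and those with several or none stayed in the fit unnamed.

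Probe sets with a mean of at least 50 were fitted on log2(intensity + 16) with limma 3.58.1 in R 4.3.3: 1 model of the 5 groups, which share 1 estimate of the spread, with the experiment as a block, eBayes with a trend on signal, and Benjamini-Hochberg adjustment over all 11856. The block follows the study's design, 1 divided culture an experiment; arrays of an experiment deviated together from their group means (correlations of 0.762 to 0.887). The methods call the 2 experiments independent, and p-values measure the spread between their arrays. The rest used Python 3.11.15, numpy 2.4.6, pandas 2.3.3 and matplotlib 3.10.9. The fit was tested on simulated data.

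Members and lists were chosen with earlier results of these data known. Lists are gene names or symbol patterns; the histone pattern matched no current symbol and the mitochondrially encoded one 1 gene. In lists and in counts of genes, each gene was represented by its brightest probe set. Brightness was the mean over the 10 arrays, which a fall itself lowers, so that the choice can favour a probe set that fell less. Classes: fast (lower, at or below 25% of 0 h in both experiments), intermediate (other lower), persisting (not called, at least 80% in both) and higher. Named genes are the 15 largest falls and 10 largest rises over all probe sets, 1 a gene, with the same sign in both experiments, in every list at most 3 members of lowest p in the list's direction and 1 called against it, the 10 brightest within 90% to 110%, the blot transcripts, and 3 genes with probe sets called in opposite directions; single markers, genes at a limit and Hbegf were chosen otherwise. Alternatives were other pseudocounts (1 and 64), filters (none, 200) and scalings, no block, no variance trend, the 4 arrays alone, other class limits, the mean over a gene's probe sets, and each array left out in turn.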

Additional observations from a re-analysis of the deposited data

Results flagged for a closer look

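These results were picked out because high and low IL-3 at 4 h differed in the same limma fit for a gene that the naming rules select, or for Hbegf, each with both high IL-3 arrays above both low IL-3 arrays. The log2 difference, high minus low, was 1.80 and 1.88 for the 2 probe sets of Hbegf (adjusted p = 5.4e-05 and 0.00036), 1.39 for Il6 (0.00026), 0.94 for Eef1e1, a partner of the aminoacyl-tRNA synthetases (0.015), 0.89 for Zfp36l1 (0.029), 0.88 for Cdkn1a (0.013), 0.83 for Pik3cd (0.024) and 0.36 for Cct6a, a chaperonin subunit (0.037), with the adjusted p in brackets. Other probe sets of these genes did not pass: Zfp36l1 had a second at 0.95 (adjusted p = 0.089), Cdkn1a at 0.56 (0.53), and Pik3cd had others at 0.81 (0.11) and 0.39 (0.69). Eef1e1 went from 1872 and 2012 at 0 h to 695 and 888 in high and 335 and 483 in low IL-3. Cct6a went from 5086 and 5246 to 3177 and 3635 in high and 2435 and 2890 in low IL-3. With 2 arrays a group, no array was tested as lying apart from its group.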

How the results depend on the processing

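With no replicate block, 1804 probe sets were lower and 38 higher at 4 h in high IL-3, and 0 differed between high and low IL-3 (125 at an unadjusted p under 0.05), beside 4201, 1147 and 48 with it. Of the genes named for falls past a relative log2 change of -1, none turned under any alternative run, and Pim1 and Pik3cd each had a probe set that lost its call without the block. Counts of small changes and of rises moved. The number lower was 2617 at a common 75th percentile, 2586 centred on the median, 2732 at a filter of 200, where fewer probe sets were tested, and 8284 scaled to the B. subtilis controls, an alternative chosen after seeing the data. The number higher was 5922, 6102, 738 and 48 under those settings, 4696 after quantile normalization and 660 scaled to hybridisation controls. The median log2 change was 0.31 at the 75th percentile, 0.32 centred on the median, 0.16 after quantile normalization, -0.017 without a filter and -0.56 scaled to the B. subtilis controls. The number differing between high and low IL-3 was 17 with a pseudocount of 64, 7 without a filter, 20 at the 75th percentile, 29 after quantile normalization, 31 scaled to hybridisation controls, 3 without a variance trend and 2609 scaled to the B. subtilis controls. Leaving out 1 array gave 3485 to 4316 lower, 366 to 1292 higher, medians of -0.15 to -0.06 and 4 to 68 differing probe sets, the fewest without the 4 h low IL-3 array of experiment 1. The cause of these moves was not tested.

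Log2 changes that turned, at the 75th percentile and centred on the median in that order, were those of Rps28 (0.32, 0.31), Rps20 (0.35, 0.33 and 0.31, 0.30), Hspa8 (0.21, 0.20 and 0.23, 0.21) and Ube2d3 (0.30, 0.28; 0.25, 0.24; 0.055, 0.043). Scaled to the B. subtilis controls, Rps6 (-0.026), Ndufb7 (-0.19), Ctsa (-0.10), Fcer1g (-0.23) and a Ube2d3 probe set (-0.070) turned. The mean over a gene's probe sets gave 2698 genes lower and 772 higher, and class limits of 33% and 90% gave 965 fast and 4192 persisting probe sets. Floor and saturation limit what intensities show at both ends of the scale.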
